A study of Mus musculus with 12 samples.

Results

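The 10 genes described here encode ligands, receptors and targets of the Notch pathway: the ligand genes Dll1, Dll3, Dll4, Jag1 and Jag2, the receptor genes Notch1, Notch2 and Notch3, and the target genes Hes1 and Hes5. They were selected by gene name. Every array probe whose transcript accession belongs to one of these genes was taken, which gave 13 probes of 41174 on one array design and 13 of 55681 on a second. The 10 genes were among 18749 named genes on the first design and 20660 on the second. Of these, 8 probes were on both designs. Dll1 was printed as 10 spots on each array, and the 13 probes took 22 spots on either design.

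All samples were J1 cells, a pluripotent line of mouse embryonic stem cells, grown on gelatin with leukaemia inhibitory factor (LIF) at 1000 U/mL. LIF, the cytokine that keeps mouse stem cells undifferentiated, was present in treated and control groups alike. For 24 h the cells received vitamin C (VC; labelled 50 µg, with no volume) or 1 µL of water (ddH2O), or retinoic acid (RA) at 1 µM or 1 µL of its solvent DMSO, with 3 samples in each of the 4 groups. VC is a reducing agent and a cofactor of dioxygenase enzymes, and RA is the vitamin A derivative that drives differentiation of stem cells. Separate cultures are not stated in the labels for the 3 samples of a group, so p-values measure only how far these samples spread, and that spread may be technical. Per the series title, the question was which genes the 2 compounds regulate.

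RNA was measured on Agilent arrays with 1 colour. VC and ddH2O samples were on one design and RA and DMSO samples on the other, so the comparisons share no control sample and no level is set across them. A level below is a normalized log2 intensity, and a difference is treated minus control on that scale. A probe was tested where at least 3 of the 6 arrays of a comparison detected it well above background, and it was called where limma's p-value, adjusted by Benjamini-Hochberg over all probes tested, was under 0.05. An array detected 66.9% to 70.3% of its probes in this way on the VC design and 60.8% to 65.6% on the RA design, with 0 saturated spots. Precision is limited by how few arrays each group has. As a check of the cell type, all 7 pluripotent stem cell markers with a probe on the VC design were tested. Their summed linear signal was 324800 to 375600 in ddH2O and 348000 to 376000 in VC. Such a sum mostly follows its brightest probe, here Dppa5a, at a mean of 18.20 in ddH2O and 18.18 in VC. In bulk samples of this kind, fewer cells that carry a transcript and less of it per cell cannot be told apart.

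Notch receptors are membrane proteins that are cut when a ligand on a neighbouring cell binds them. The freed intracellular part enters the nucleus, joins the DNA-binding protein RBPJ and its Mastermind-like coactivators, and switches on targets such as the Hes and Hey genes, whose products are repressors. In the embryo the pathway holds neural progenitors back from differentiating, divides the presomitic mesoderm into somites and selects endothelial tip cells, and in stem cell cultures it is known for its part in leaving pluripotency.

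The 4 upstream windows printed next are those of the members on which the results turn: Dll1, the member with the largest called difference in VC, Dll4 and Jag1, the largest rise and fall in RA, and Hes5, which was called in both comparisons. They are the 250 bases before a transcript start, from RefSeq on build GRCm38.p6, read 5′ to 3′ on the strand of the gene. Capitals mark TGGGAA or its reverse complement TTCCCA, the core that RBPJ binds, and AGGTCA or TGACCT, the half-site of retinoic acid receptors.
Hes5, chr4:154960673-154960922, plus strand: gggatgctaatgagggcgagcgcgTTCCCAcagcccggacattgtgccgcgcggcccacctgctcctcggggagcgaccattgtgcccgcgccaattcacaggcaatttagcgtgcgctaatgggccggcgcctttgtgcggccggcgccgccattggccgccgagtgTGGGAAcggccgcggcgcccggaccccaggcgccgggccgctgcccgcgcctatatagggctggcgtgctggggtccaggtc
Dll4, chr2:119325534-119325783, plus strand: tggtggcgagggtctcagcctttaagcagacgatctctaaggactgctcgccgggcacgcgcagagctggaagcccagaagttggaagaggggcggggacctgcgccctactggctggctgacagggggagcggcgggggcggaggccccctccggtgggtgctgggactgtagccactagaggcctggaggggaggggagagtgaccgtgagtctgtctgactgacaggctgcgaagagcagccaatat
Jag1, chr2:137116521-137116770, minus strand: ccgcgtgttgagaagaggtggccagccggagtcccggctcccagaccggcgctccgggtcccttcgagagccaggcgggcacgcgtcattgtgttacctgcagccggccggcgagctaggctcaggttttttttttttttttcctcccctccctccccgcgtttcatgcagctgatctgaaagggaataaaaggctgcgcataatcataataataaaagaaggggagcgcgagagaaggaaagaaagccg
Dll1, chr17:15376933-15377182, minus strand: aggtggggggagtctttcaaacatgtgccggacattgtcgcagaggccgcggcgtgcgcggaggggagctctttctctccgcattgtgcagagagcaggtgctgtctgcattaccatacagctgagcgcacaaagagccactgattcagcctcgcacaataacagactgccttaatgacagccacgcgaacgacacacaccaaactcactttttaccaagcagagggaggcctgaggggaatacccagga

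The table of windows held 9 of the 10 members, Hes1 not among them. The Hes5 window held 2 RBPJ cores, from 226 to 221 and from 82 to 77 bases before the start, the first as TTCCCA. This window lies inside the annotated span of Hes5, before the start of the transcript used. No other member's window held the RBPJ core, which 7094 of all 32851 windows of this length held on either strand, or 21.6%. The half-site was in 1 member window, a second start of Dll1 that lies within the gene, and in 14% of all windows. A match describes the letters of the window and is not a measured binding site.

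In VC, 5 members were called lower than in ddH2O and none was called higher. The ligand genes Dll1, Dll3 and Jag1, the receptor gene Notch3 and the target gene Hes5 were called, with falls between 1.28-fold and 1.82-fold. Of the 12 member probes tested, 0 were called higher and 5 lower, where 2.89% and 5.31% of the 28157 probes tested on this design were called higher and lower, or 8.2% in either direction. The median difference over the 12 probes was -0.18, against 0.01 over all probes. Levels of the treated and control arrays did not overlap for 7 of the 12 probes, against 36.4% of all probes tested.

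Dll1, a ligand that activates Notch on neighbouring cells, lay at 8.02, 7.91 and 7.81 in ddH2O replicates 1 to 3 and at 6.94, 7.15 and 7.05 in VC replicates 1 to 3. All 3 VC arrays were below all 3 ddH2O arrays. The difference was -0.87 (SE 0.09, 95% interval -1.08 to -0.66, limma adjusted p = 0.0135), which is 1.82-fold lower in VC. By size it ranked 287 among the probes tested. Its 10 spots give a view of the measurement within each array. The highest spot of any VC array, at 7.29, was below the lowest spot of any ddH2O array, at 7.66. Spots of one array had SDs between 0.10 and 0.29, the widest in ddH2O replicate 1, where a single spot read 8.83 beside a median of 7.92. That spot carried no outlier flag and was kept.

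**Figure D1:**
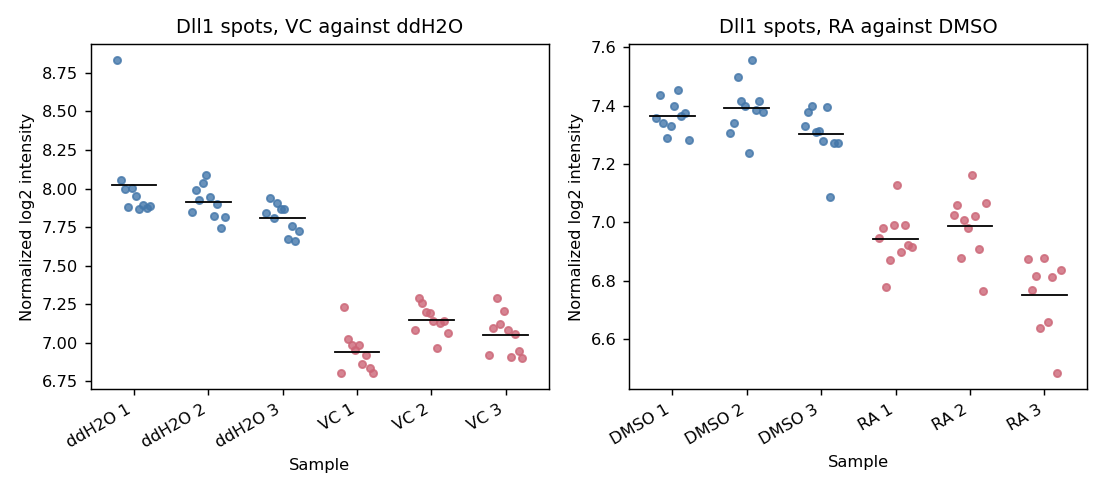
Each point is 1 spot of the Dll1 probe, as normalized log2 intensity by sample, with VC and ddH2O arrays in the left panel and RA and DMSO arrays in the right one, and lines at the mean of each array. The VC spots end at 7.29, below the lowest ddH2O spot at 7.66, while RA spots reach 7.16 and DMSO spots go down to 7.09.

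Dll3, a divergent ligand known for blocking Notch within the same cell, lay at 8.64, 8.60 and 8.75 in ddH2O and at 8.05, 8.26 and 8.08 in VC. Again every VC array was below every ddH2O array, and the difference was -0.53 (SE 0.08, limma adjusted p = 0.0230), a 1.45-fold fall. Jag1, a ligand of the Jagged class, lay on its probe 1 at 8.55, 8.47 and 8.36 in ddH2O and at 7.96, 8.02 and 8.10 in VC. Those arrays did not overlap either, and the difference was -0.43 (SE 0.07, limma adjusted p = 0.0287), or 1.35-fold lower. A second Jag1 probe was well above background on 1 ddH2O array and on 0 VC arrays and was not tested. It read 3.23, 3.0 and 3.50 in ddH2O and 3.07, 3.20 and 2.74 in VC, which overlap.

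Jag2, the other Jagged ligand, lay at 8.17, 8.12 and 8.15 in ddH2O and at 7.74, 7.90 and 7.92 in VC. The arrays did not overlap, but the difference of -0.29 (SE 0.07, 95% interval -0.46 to -0.12) was not called (limma adjusted p = 0.0571). Dll4, the ligand known from endothelial tip cells, lay at 7.82, 7.39 and 8.0 in ddH2O and at 8.17, 8.57 and 6.47 in VC. VC replicates 1 and 2 were above every ddH2O array and VC replicate 3 was below them all. The difference was 0.00 in size (SE 0.54, 95% interval -1.30 to 1.29), with the widest interval of the members tested in VC. Without VC replicate 3 it was 0.63, and within the slide that held 4 of the arrays 0.68, neither of which was called. VC replicate 3 and ddH2O replicate 1 each lay alone on a slide, and VC replicate 3 was the one array of the design scanned on another day. The part of slide or scan in the Dll4 value was not tested.

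Among the receptors, Notch3 was lower in VC. It lay at 12.20, 12.13 and 12.18 in ddH2O and at 11.79, 11.82 and 11.80 in VC, with no overlap. The difference was -0.36 (SE 0.05, limma adjusted p = 0.0219), or 1.28-fold lower. Notch1, the receptor most studied in T cells and neural tissue, lay at 8.97, 8.88 and 8.94 in ddH2O and at 8.88, 9.04 and 8.66 in VC. These overlapped, and the difference of -0.07 had a 95% interval from -0.32 to 0.18 (limma adjusted p = 0.688).

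Notch2 had 3 probes, none of them called. Probe 1 lay at 9.65, 9.74 and 9.77 in ddH2O and at 9.71, 9.68 and 9.72 in VC, and its difference of -0.02 had a narrow 95% interval, from -0.16 to 0.13. Probe 3 lay between 7.04 and 7.19 in ddH2O and between 7.04 and 7.10 in VC (difference -0.07, SE 0.07). Probe 2, the dimmest, gave a difference of 0.29 (SE 0.19, limma adjusted p = 0.357), with VC replicates 1 and 2 at 4.67 and 4.65 and replicate 3 at 4.07, inside the range of the ddH2O arrays of 4.04 to 4.39.

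Of the Hes genes, which encode repressors that Notch signalling switches on, Hes5 was called and Hes1 was not. Hes5 lay at 7.57, 7.62 and 7.51 in ddH2O and at 7.13, 7.26 and 7.21 in VC. The arrays did not overlap, and the difference was -0.37 (SE 0.06, limma adjusted p = 0.0286), or 1.29-fold lower. Hes1 lay at 6.26, 6.17 and 6.18 in ddH2O and at 6.41, 6.32 and 6.40 in VC. Here every VC array was above every ddH2O array, but the difference of 0.18 (SE 0.06, 95% interval 0.03 to 0.33) was not called (limma adjusted p = 0.12).

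**Figure D2:**
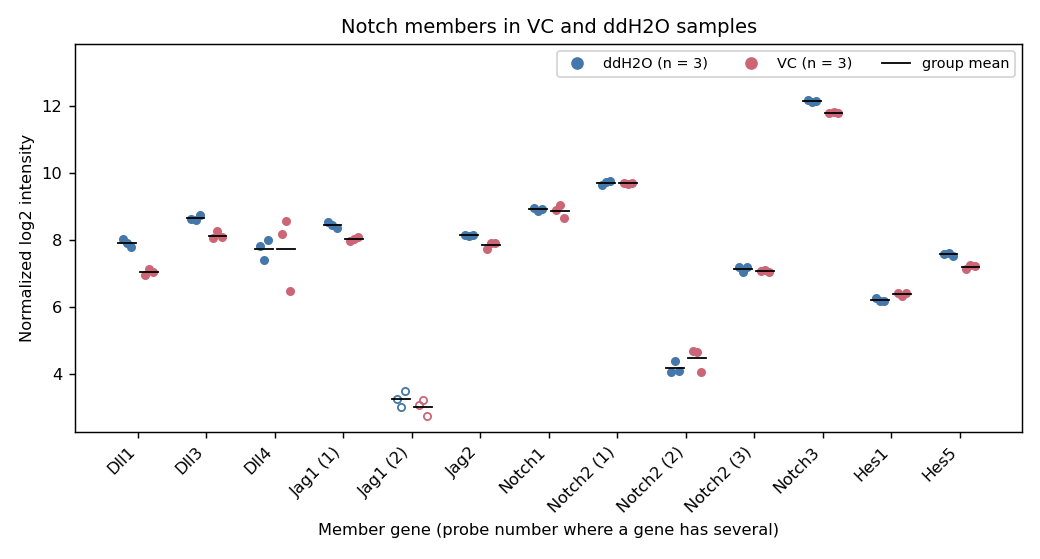
Normalized log2 intensity of each member probe on the 3 ddH2O (blue) and 3 VC (red) arrays, with bars at group means and open points for the Jag1 probe that was not tested. The arrays of Dll1, Dll3, Jag1 (1), Jag2, Notch3 and Hes5 separate with VC lower, those of Hes1 separate with VC higher, and VC replicate 3 stands apart for Dll4 at 6.47.

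The 5 VC calls, like those over all probes, depended on single arrays and on how the slide entered the fit. Their direction did not. None of the 5 was called without ddH2O replicate 1, ddH2O replicate 2 or VC replicate 1. Each of those fits called 0 of the 28157 probes tested. Dll1 alone was called without ddH2O replicate 3 or VC replicate 3, where 368 and 685 of all probes were called. Dll1 and Dll3 were called without VC replicate 2, where 1033 of all probes were. Within the slide that held ddH2O replicates 2 and 3 and VC replicates 1 and 2, which is the fit with slide as a fixed block, none was called, with differences of -0.81 for Dll1, -0.52 for Dll3, -0.42 for Jag1, -0.35 for Notch3 and -0.37 for Hes5. The fit with slide as a fixed block called 0 of all 28157 probes. With slide as a random block, which uses all 6 arrays, the 5 were called, with limma adjusted p between 0.0117 for Dll1 and 0.0259 for Hes5. With spike-in scaling, which moved the median of all probes in VC to 0.16, Dll1 alone was called.

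Beyond the members, 57 genes of the pathway were read from lists by role, with the brightest probe standing for each gene. On the VC design 43 of these were tested, of which 2 were higher and 3 lower, where 3.12% and 7.12% of the 14530 genes so represented were called higher and lower, or 10.2% in either direction. The median difference was -0.04. The falls were in Hey1, a target gene of the Hes and Hey family (-0.63, SE 0.11, limma adjusted p = 0.0271), Notch4, a receptor gene known from endothelium (-0.40, limma adjusted p = 0.035), and Hes2 (-0.38, limma adjusted p = 0.0407), whose other probe gave -0.02. Nrarp, a feedback target of Notch, lay at -0.44 and did not pass (limma adjusted p = 0.0715). The rises were in Poglut1, which adds glucose to the receptors (0.45, limma adjusted p = 0.0355), and Mesp2, a segmentation gene of the presomitic mesoderm (0.36, limma adjusted p = 0.0336).

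By role, 0 of 4 ubiquitin ligases that act on the ligands were called in VC, 0 of 7 proteases that cut ligand or receptor, 0 of 6 cytoplasmic regulators, 0 of 7 genes of the nuclear complex and 0 of 4 proneural genes. With 1 probe per gene in the fit, 18 of the 43 pathway genes had limma's unadjusted p under 0.05, beside 5036 of the 14530 genes tested. The 5 tested genes of the other Hes and Hey list included both Hey1 and Hes2, and Hey2 lay at -0.71 without passing (limma adjusted p = 0.361). No pathway gene of these lists kept its call without ddH2O replicate 1, 2 or 3 or without VC replicate 1 or 3. Without VC replicate 2, 2 did. Over all probes 0 were called without ddH2O replicate 1 or 2 or VC replicate 1.

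Marker lists of other cell types were read beside these VC values. Of all genes read by their brightest probe on this design, 10.2% were called in either direction. Neural progenitor markers summed to 946.4 to 1030 in ddH2O and 802.8 to 888.7 in VC (0 of 5 tested called; Hes3 dim in both groups), fibroblast markers to 2389 to 2601 and 1870 to 1933 (1 of 6 lower; Lum dim in both), and endothelial markers to 1148 to 1241 and 1146 to 1231 (0 of 5; Cdh5 and Emcn dim in both). Presomitic mesoderm markers summed to 691.7 to 785.5 in ddH2O and to 657.8 to 706.8 in VC, with 1 of 8 higher and 1 lower. The marker called higher was Mesp2, the same value given above as a pathway rise. The lists overlap: Mesp2, Tbx6 and Msgn1 are also segmentation genes of the pathway lists, and Hes3 is also on the other Hes and Hey list. Of the pluripotent stem cell markers 3 of 7 were higher. The part of such cells in the member values was not tested.

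In RA, most members differed from DMSO and in both directions. Dll4 rose 8.18-fold, Notch2 2.67-fold, Hes5 1.98-fold and Hes1 1.88-fold, while Jag1 fell 3.40-fold and Dll1 and Notch3 1.38-fold each. Of the 13 member probes tested, 7 were called higher and 3 lower, where 36% and 35.6% of the 37046 probes tested on this design were called higher and lower. Over all probes 71.6% were called in either direction, so 10 of 13 is near the share of any probe. The arrays did not overlap for 12 of the 13 probes, against 77% of all probes. The median difference of the 13 probes was 0.79, against 0.03 over all probes. That median is the value of a Notch1 probe that was not called, and Dll3, Notch1 and Notch2 count more than once in it. With one probe per gene the median was 0.58, against -0.08 over all genes. By their brightest probes 5 of the 10 genes were called higher, 3 lower and 2 not. Of all genes read in this way, 34.8% were called higher and 40.8% lower. The 3 DMSO arrays shared a slide and the 3 RA arrays shared another, so slide and treatment cannot be told apart in any RA value.

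Dll4 had the largest difference of any member. It lay at 8.61, 8.57 and 8.49 in DMSO and at 11.47, 11.49 and 11.81 in RA, with every RA array far above every DMSO array. The difference was 3.03 (SE 0.11, 95% interval 2.75 to 3.31, limma adjusted p = 5.16e-06), and it ranked 1939 by size among the probes tested. Jag1 moved the opposite way. It lay at 8.54, 8.60 and 8.49 in DMSO and at 6.73, 6.94 and 6.67 in RA, a difference of -1.77 (SE 0.10, 95% interval -2.00 to -1.53, limma adjusted p = 2.1e-05).

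Dll1 lay at 7.36, 7.39 and 7.30 in DMSO and at 6.94, 6.99 and 6.75 in RA. The arrays did not overlap, and the difference was -0.46 (SE 0.09, limma adjusted p = 0.004). Its size moved with the processing, to -0.18 with normexp background correction and to -0.80 and -0.87 with median and spike-in scaling, and it was called under each. Single spots of RA and DMSO arrays did overlap, since RA spots reached 7.16 and DMSO spots went down to 7.09. On RA replicate 3 an outlier flag left 9 of the 10 spots.

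Dll3 was read by 2 probes. Probe 2 lay at 7.73, 7.62 and 7.63 in DMSO and at 8.25, 8.05 and 8.11 in RA, without overlap, and was 1.39-fold higher (0.48, SE 0.08, limma adjusted p = 0.00261), but it fell to 0.14 and 0.06 with median and spike-in scaling, where it was not called. Probe 1 lay at 7.85, 7.76 and 7.85 in DMSO and at 8.15, 8.11 and 7.89 in RA and did not pass the test (0.23, SE 0.09, limma adjusted p = 0.0684), turning to -0.11 and -0.19 with those scalings. It was called in 3 of 17 alternatives: with normexp correction (0.23), with one probe per gene (0.23) and without RA replicate 3 (0.31). Jag2 lay at 7.03, 7.13 and 7.12 in DMSO and at 7.61, 7.56 and 7.18 in RA, where RA replicate 3 was close to the DMSO arrays. Its difference of 0.36 (SE 0.13, limma adjusted p = 0.0473) just passed the test, and it turned to -0.06 with spike-in scaling, where it was not called. It also lost its call with quantile normalization and in the authors' deposited series values (0.16 in each), with median scaling (0.02), with no filter and with the replicate block. Leaving out any 1 array other than RA replicate 3 also ended the Jag2 call, with differences between 0.28 without RA replicate 1 and 0.37 without DMSO replicate 2 or 3. Without RA replicate 3 it was called at 0.50.

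Notch2 rose on both of its probes. Probe 1 lay at 9.42, 9.39 and 9.36 in DMSO and at 10.80, 10.83 and 10.79 in RA, a difference of 1.42 (SE 0.06, limma adjusted p = 1.02e-05). Probe 2, much dimmer, lay at 3.52, 3.93 and 3.58 in DMSO and at 5.32, 4.64 and 5.25 in RA, and its difference of 1.40 (SE 0.21, limma adjusted p = 0.00151) was of the same size. Neither probe's arrays overlapped between groups. Notch3 fell: it lay at 11.57, 11.51 and 11.45 in DMSO and at 11.12, 11.02 and 11.001 in RA, with no overlap and a difference of -0.46 (SE 0.07, limma adjusted p = 0.00188). Over the alternatives it was called throughout, between -0.88 with spike-in scaling and -0.26 with quantile normalization.

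Notch1 was not called on either of its probes. Probe 1 lay at 5.68, 6.57 and 6.21 in DMSO and at 6.75, 6.58 and 7.51 in RA, so that the lowest RA array was level with the highest DMSO array. Its difference was 0.79 (SE 0.32, 95% interval 0.00 to 1.58, limma adjusted p = 0.0663). Probe 2 lay at 3.63, 3.58 and 2.88 in DMSO, where it was well above background on 2 of 3 arrays, and at 3.60, 3.93 and 6.07 in RA. RA replicate 3 was far above the other RA arrays on this probe, and the difference of 1.17 (SE 0.67) was not called (limma adjusted p = 0.16). With normexp background correction both probes were called, at 0.65 and 0.88, and without DMSO replicate 2 probe 1 was called at 1.00.

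Both Hes targets were higher in RA. Hes1 lay at 6.15, 6.36 and 6.33 in DMSO and at 7.02, 7.16 and 7.41 in RA, and Hes5 at 5.49, 5.39 and 5.69 in DMSO and at 6.40, 6.70 and 6.42 in RA. For each gene all RA arrays were above all DMSO arrays. The difference was 0.91 for Hes1 (SE 0.12, limma adjusted p = 0.000908) and 0.99 for Hes5 (SE 0.12, limma adjusted p = 0.00065). With spike-in scaling Hes5 lay at 0.57 and was not called (limma adjusted p = 0.0602), and Hes1 lay at 0.50 and was called.

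**Figure D3:**
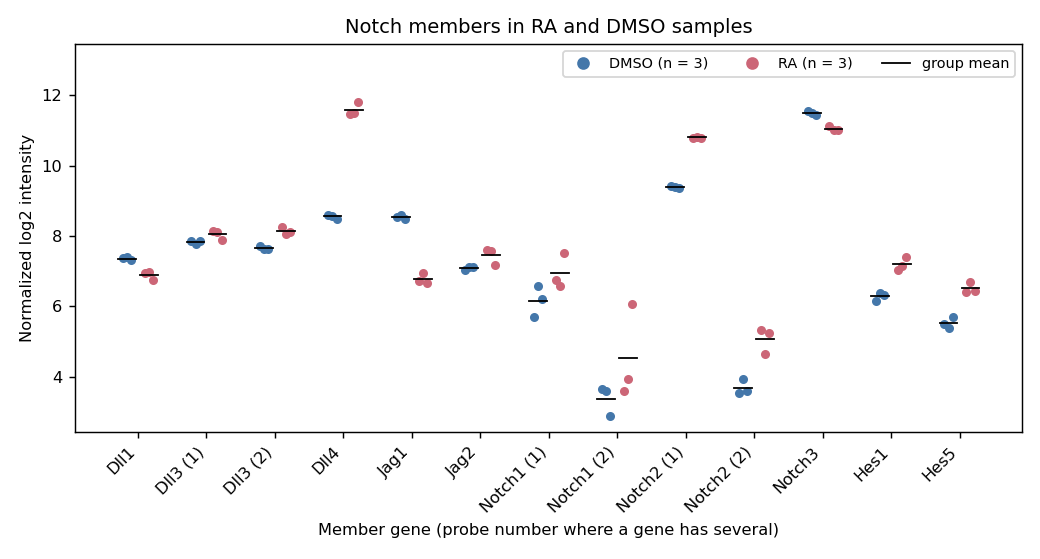
Normalized log2 intensity of each member probe on the 3 DMSO (blue) and 3 RA (red) arrays, with bars at group means. Dll4 and Notch2 lie higher and Jag1 lower in RA by the widest margins, and RA replicate 3 of the second Notch1 probe stands apart at 6.07.

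The scaling matters for RA, where the signal of the arrays before scaling differed between groups: the 75th percentile lay between 9.25 and 9.26 (log2) on the DMSO arrays and between 8.17 and 8.60 on the RA arrays. Median scaling moved the median of all probes from 0.03 to -0.31 and spike-in scaling moved it to -0.39. Rises were then 34.1% and 29.6% of all calls, against 50.3% in the main setting, 63.6% with normexp correction and 63.5% with no filter on dim probes. The median of the member probes under both scalings was 0.46 and 0.38. Dll4, Notch2, Jag1, Notch3, Dll1 and Hes1 kept their sign and their call under every alternative run.

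Of the other pathway genes, 48 were tested on the RA design, with 18 higher, 15 lower and 15 not called, where 34.8% and 40.8% of the 16015 genes so represented were called higher and lower, or 75.6% in either direction. The median difference was -0.02. The largest rise was in the nuclear complex, where Maml3, a Mastermind-like coactivator, was 34.5-fold higher (5.11, limma adjusted p = 1.77e-06), with its other probe at 4.08. In the same complex Rbpj, the DNA-binding partner of the receptors, was 2.17-fold lower (-1.12, limma adjusted p = 0.000154; other probe -0.98) and Maml2 lay at -1.18, or -0.33 with normexp correction, called in both. Ctbp1, a corepressor gene, was higher by 0.63, but lay at 0.22 with spike-in scaling, where it was not called. This list held 3 rises and 3 falls among 8 genes tested.

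The other receptor and ligand-like genes tested moved in opposite directions. Dlk1, which encodes a membrane protein related to the Delta ligands, rose 23.3-fold (4.54, limma adjusted p = 7.47e-07; other probe 4.44), and Notch4 fell 9.29-fold (-3.22, limma adjusted p = 1.3e-06). Among ligand ubiquitin ligases, needed for ligands to pull on the receptor, Mib2 fell by 1.61 on the log2 scale. Mib1 was 0.25 higher (limma adjusted p = 0.0323), but it turned to -0.09 with median and to -0.16 with spike-in scaling. It lost its call in 8 other alternatives, among them every left-out array but RA replicate 1. Among glycosyltransferases, which tune receptors to their ligands, 2 of 5 were higher and 3 lower: Lfng rose by 1.44 and Pofut1 by 0.69, Rfng fell by 1.32 and Poglut1 by 1.03 on the log2 scale. With spike-in scaling Pofut1 lay at 0.28 and was not called.

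Of 8 proteases 5 were higher and 0 lower, with Aph1b, a subunit of gamma-secretase, at 1.66 (other probe 0.14) and Adam10, which makes the outer cut, at 1.11. The cytoplasmic regulators had 1 rise, Dtx4 (14.2-fold, 3.83), and 3 falls, with Dtx1 at -1.94 and Dtx3 at -0.71, among 8 tested. The Dtx genes encode Deltex ubiquitin ligases. Of 6 other Hes and Hey genes, Hes7, the somite clock repressor, rose by 0.54, Hes6 fell by 0.97 and Hes2 by 0.75 on the log2 scale. Hes2 lay at 0.02 with normexp correction and Hes7 at 0.13 with spike-in scaling, and neither was called there. Hey1 and Nrarp, at -0.16 and 0.05, were not called.

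Among the proneural genes, the transcription factors that Hes proteins repress, Neurog1 rose by 0.57 (limma adjusted p = 0.0324) and Neurog3 fell by 0.38 on the log2 scale (limma adjusted p = 0.0203). Neurog1 lost its call in 9 of 17 alternatives, at 0.18 with quantile normalization, 0.23 with the median and 0.16 with the spike-ins as the scale, and also without DMSO replicate 2 or 3 or RA replicate 1 or 3. Neurog3 lost its call in 3: without DMSO replicate 1 or 3 and with the replicate block. Neurod1 was dim on all RA arrays, and in the main setting its fall is a bound of at least 5.54-fold. The bound sets the DMSO mean against, on each RA array, the lowest signal that counted as detected, or the probe's own signal where that was higher. The measured Neurod1 difference ran from -4.33 to -0.27 over 16 alternatives, and its other probe gave -3.27. Of 3 presomitic segmentation genes, Tbx6 rose by 1.09, while its other probe gave -0.06, and Ripply2 by 0.50. Ripply2 lost its call in 7 of 17 alternatives, at 0.30 with quantile normalization, 0.17 with the median and 0.09 with the spike-ins as the scale, and also without DMSO replicate 1 or 2 or RA replicate 1.

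**Figure D4:**
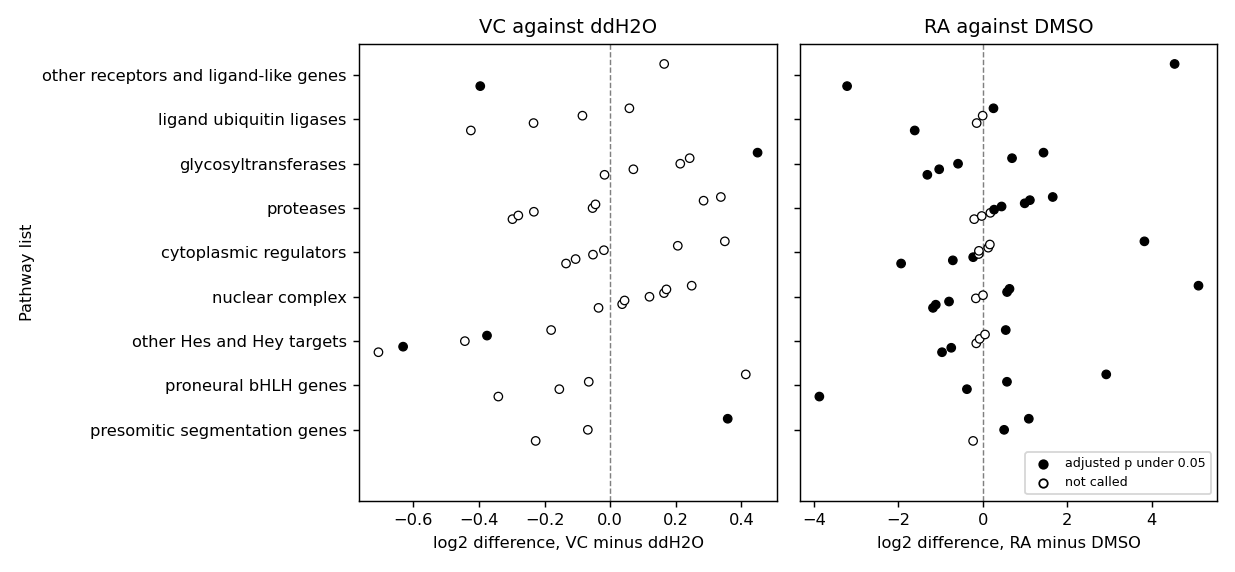
Each point is 1 tested pathway gene outside the 10 members, placed by its log2 difference in VC against ddH2O (left) and RA against DMSO (right), in rows by role; filled points passed limma's test and points within a row are spread by rank. VC values lie between -0.71 and 0.45, and RA values between -3.87 for Neurod1, drawn at its measured difference although it was dim in RA, and 5.11 for Maml3.

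Marker lists of cell types were also read in RA, and each sum mostly follows its brightest probes. Of all genes read by their brightest probe on this design, 75.6% were called in either direction. Pluripotent stem cell markers summed to 238200 to 247100 (linear normalized intensity) in DMSO and to 37690 to 42460 in RA, with 7 of 8 lower and 1 higher. The marker called higher was Nanog (1.32, limma adjusted p = 0.000195). Neural progenitor markers summed to 1904 to 1923 in DMSO and to 8835 to 9235 in RA (4 of 8 higher, 2 lower, Pou3f2 dim in DMSO). Zic1, among those lower, gave -1.11 on its brightest probe and 7.53 on another. Presomitic mesoderm markers summed to 504.3 to 556.7 in DMSO and to 4791 to 4911 in RA (6 of 7 tested higher, 0 lower, Msgn1 dim in both). Meox1 and Cited1 led this sum in RA, at means of 11.31 and 10.81, against 3.78 and 8.05 in DMSO. Mesp2, the tested marker without a call, lay at -0.23. Fibroblast markers summed to 991.3 to 1072 and 17540 to 18680 (5 of 6 higher, 1 lower; Lum and Postn dim in both). Most of the fibroblast sum in RA was Col1a2, at a mean of 7.84 in DMSO and 13.94 in RA. Endothelial markers summed to 5035 to 5394 and 4570 to 7148 (1 of 6 higher, 4 lower), with Cdh5 and Emcn dim in both groups. The rise was in Tie1 (2.90). Kdr was not called on its brightest probe (0.26), while another Kdr probe gave 3.71. That brightest probe led the sum, at a mean of 12.07 in DMSO and 12.33 in RA. The part of these cell types in the member values was not tested.

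Set side by side, Dll1, Jag1 and Notch3 were called lower in both comparisons: Dll1 at -0.87 in VC and -0.46 in RA, Jag1 at -0.43 and -1.77, and Notch3 at -0.36 and -0.46. Over all probes tested, 5.31% were called lower in VC and 35.6% in RA, and the share called lower in both was not computed. Their VC calls depended on single arrays, as given above, so the overlap is not read as a shared response. Hes5 was called in opposite directions, at -0.37 in VC and 0.99 in RA. Dll3 lay at -0.53 in VC and, on the same probe, at 0.23 in RA without a call. Dll4, Notch2 and Hes1 were called in RA and not in VC. Their 95% intervals in VC were -1.30 to 1.29 for Dll4, -0.16 to 0.13 for Notch2 probe 1 and 0.03 to 0.33 for Hes1. Hes1 and Notch1 were read by different probes on the 2 designs, and probe 2 of Notch2 also differs between them. Whether any member's response differed between the compounds was not tested, since the array designs and the solvents differ.

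**Figure D5:**
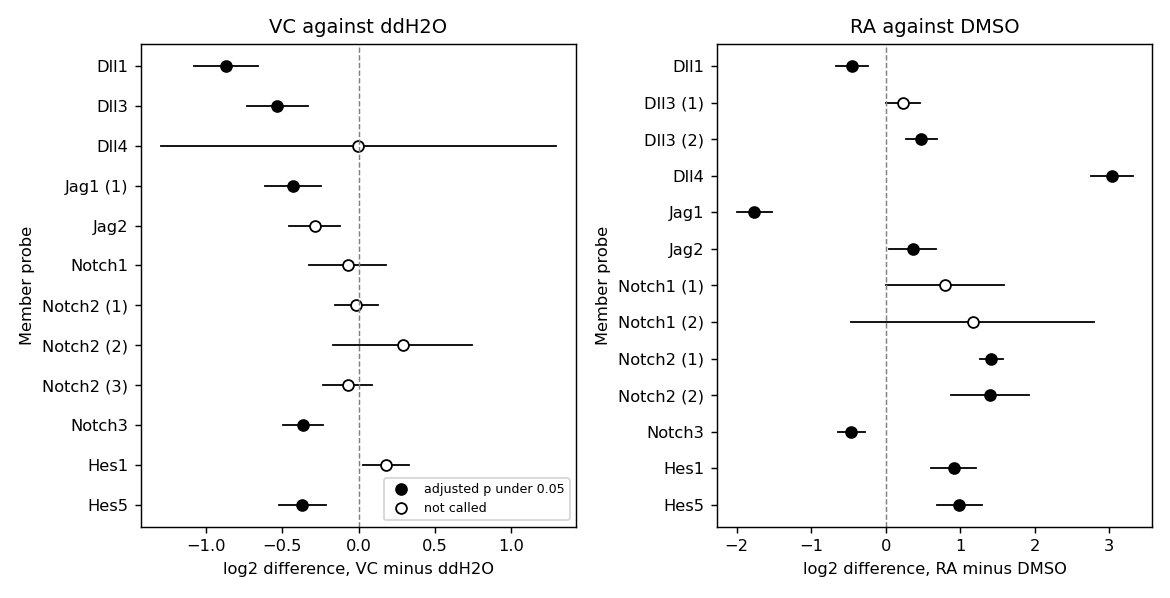
Log2 differences of the member probes with 95% intervals (bars), VC minus ddH2O in the left panel and RA minus DMSO in the right one, on axes of different range; filled points passed limma's test. The 5 filled points in VC all lie below 0, from -0.87 to -0.36, and the 10 in RA run from -1.77 for Jag1 to 3.03 for Dll4.

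The genes whose levels ran closest to the member with the largest called difference were found by Pearson's r over the 6 arrays of a design. For Dll1 in VC and ddH2O these were Spag6l (0.9989), Pitpnm1 (0.9977) and St8sia6 (0.9976), among 752 of 14489 genes, or 5.19%, at 0.95 or more. For Dll4 in RA and DMSO they were Mmp15, Asic4 and Dbn1 (0.9999 each), among 3775 of 15992 genes, or 23.6%. The 6 arrays hold both groups, so any gene that differs between the groups in the same direction scores high.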

How the data were processed

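Total RNA of 12 samples was read on Agilent arrays. Each deposited scanner file gives spots' intensity, which the authors extracted with Agilent Feature Extraction (the file headers give version 10.7.3.1 and the submitters' processing notes 10.7), background-subtracted and detrended. The deposited series tables hold the authors' log2 values per probe, with a normalization that the sources used here do not state, and they served as an alternative.

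For each array, log2 of the processed signal was taken and the 75th percentile over spots that were neither controls nor flagged as outliers was subtracted. The mean percentile of the design's 6 arrays was then added back. Flagged spots were left out and spots of a probe averaged. Genes were named by matching accessions, without versions, to a RefSeq table of GRCm38.p6, which matched 27479 of 41174 probes on the VC design and 27235 of 55681 on the RA design. Promoter windows and their sequences are from RefSeq.

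Each comparison was fitted alone with limma 3.58.1 (lmFit and eBayes, R 4.3.3) over all probes well above background on at least 3 of 6 arrays, with Benjamini-Hochberg adjustment over all of them. Alternatives were other scalings, background corrections, filters, variance models and blocks, and fits that omit 1 sample at a time.

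The members, the pathway and marker lists and the tests were chosen with earlier results of these data known. Named were all members, up to 2 called rises and 2 called falls of each pathway list, and the 3 genes most like the member with the largest called difference. One gene that this rule named is not reported here. Genes named without a call, such as Hey2, Nrarp and Hey1, were chosen after their values were seen. So were the markers Dppa5a, Tie1, Kdr, Zic1, Nanog, Col1a2, Meox1 and Cited1.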

Additional observations from a re-analysis of the deposited data

How the results depend on the processing

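In VC the count of called member probes, 5 in the main setting, was 1 with spike-in scaling, 1 with normexp correction, and 0 with no filter, with the replicate block and with slide as a fixed block, but 5 with slide as a random block, and ran from 0 to 2 with 1 array left out. The count over all probes, 2309, was 818 with spike-in scaling, 552 with normexp correction, 3953 with eBayes trend and 0 with no filter, with the replicate block and with the fixed slide block, but 2573 with the random one, and ran from 0 to 1033 with 1 array left out. At limma's unadjusted p under 0.05 the 0 counts held 7, 7 and 8 member probes and 7629, 7616 and 6027 of all probes, in that order. The count of other pathway genes, 5, was 3 with median scaling, 1 with spike-in scaling, 10 with trend, 12 with one probe per gene and 0 with normexp correction (11 at an unadjusted p under 0.05), no filter (18), the replicate block (15) and the fixed slide block (14), but 6 with the random one, and ran from 0 to 2. Rises were 35.3% of all VC calls in the main setting, 55.2% with median and 73% with spike-in scaling.

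Over the alternatives Dll1 lay between -0.92 and -0.64, Dll3 between -0.60 and -0.37, Jag1 between -0.48 and -0.28, Notch3 between -0.40 and -0.21 and Hes5 between -0.40 and -0.22 in VC. Jag2 was called in VC with the filter on all 6 arrays, with trend and with one probe per gene.

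In RA the member count, 10, ran from 7 to 13, with 9 to 11 when 1 array was left out, and the pathway count, 33, from 28 to 39, with 28 to 34. Over all probes the count was 26509, ran from 23628 to 27125 with 1 array left out, and was 12491 with one probe per gene, where fewer features were tested. Among called values, signs turned for Jag2 with spike-in scaling (-0.057), for Mib1 with median (-0.086) and spike-in scaling (-0.16) and for Hes2 with normexp correction (0.017); the cause was not tested. Of the values not called, Dll3 probe 1 in RA took both signs (-0.19 to 0.31), as did Dll4, Notch1 and Notch2 probes 1 and 3 in VC. Dll4 lay between 2.62 and 3.19 and Jag1 between -2.18 and -1.25.

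The labels number replicates 1 to 3 in each group, but the numbers did not pair the samples: the deviations of same-numbered arrays correlated at -0.07, 0.05 and -0.02 in VC and at -0.03, 0.02 and -0.04 in RA. With the replicate block the RA counts were 9 member probes, 29 pathway genes and 25027 probes in all.

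Depth limits dim probes: the second Jag1 probe on the VC design and the second Notch1 probe on the RA design were near background.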

Other observations

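Of the pathway genes outside the tests, Dner, a ligand-like gene of neurons, was dim but showed a bound in both comparisons. It was at least 1.43-fold lower in VC, where 0 of 3 arrays detected it against 2 of 3 in ddH2O, and at least 2.61-fold higher in RA than in DMSO, where 2 of 3 RA arrays and 0 of 3 DMSO arrays detected it. It was singled out after its values were seen, and neither bound has a test. Different probes read Dner on the 2 designs. Each bound averages all 3 arrays of the detecting group, also the array that did not detect it, so it is approximate. Atoh1, a proneural gene, and Heyl, a gene of the Hey family, were not detected above background on any of the 12 arrays.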
